A study of Mus musculus with 11 samples.

Results

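Nearly all proteins of mitochondria are made in the cytosol and carried in by translocases of the outer and inner membranes, the TOM and TIM complexes. The genes of this import machinery were described in 11 clones of granulocyte-monocyte progenitors (GMPs) from the mouse, which give rise to neutrophils and monocytes. The members were the protein-coding genes named Timm or Tomm with a number, together with Samm50, Mtx1, Mtx2, Pam16, Dnajc19, Grpel1, Grpel2, Chchd4, Gfer, Pmpca and Pmpcb. This rule took 35 of the 37583 gene IDs in the counts. It uses names and no measured value. Tomm20, the presequence receptor of the outer membrane, also has a name that the rule takes, but no ID in the counts matched it, and it was not analysed here.

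The lines carry ER-Hoxb8, a fusion of the hormone-binding part of the estrogen receptor with the transcription factor Hoxb8, which holds progenitors immature and dividing while estradiol is present. All 11 were derived from fetal liver of C57BL/6 embryos on day 15.5 and grew with 0.5 uM beta-estradiol and medium conditioned with stem cell factor, equal to about 50 ng/ml. Of these, 6 were wild-type (WT), and 5 were knocked out (KO) for Taz, the gene of tafazzin. Tafazzin remodels cardiolipin, the signature phospholipid of the inner mitochondrial membrane, in which the TIM complexes sit, and mutations of the human gene underlie Barth syndrome, which often includes neutropenia. Each line is a single clone, and no source used here says which part of Taz was removed. Clones are named here by the number and letter of their titles, 1A to 2F for WT and 3H to 4L for KO. The number is nested in genotype and no source used here says what it means. A difference between genotypes therefore cannot be told apart from one between numbered sets. The p-values measure the spread between these clones only.

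Import works as a relay. TOM receives precursors and passes them through the Tomm40 channel. Presequence proteins go on to TIM23 and are pulled into the matrix by a heat-shock motor, where the matrix processing peptidase removes the presequence. The small TIM chaperones ferry hydrophobic proteins across the intermembrane space, either to TIM22 for insertion in the inner membrane or to the SAM complex for beta-barrel proteins of the outer membrane. The disulfide relay of Chchd4 and Gfer traps small cysteine-rich proteins between the membranes.

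The labels were checked on Taz itself. Its level, in CPM (read counts scaled to library size with TMM), was 37.0, 38.4 and 43.8 (lowest, median and highest) in WT clones, while the KO clones, in the order 3H to 4L, had 3.45, 3.31, 3.06, 4.09 and 2.21. The genotypes did not overlap (two-sided exact permutation test over 462 splits, p = 0.00216, the smallest this design allows). Gene counts totalled 19778119 to 27431544 per clone. The summed level of 7 markers of GMPs and their primary granules was 10492 to 21645 CPM in every clone, while the T lymphoid and the stroma and hepatocyte lists reached 1.995 CPM at most. Markers of other myeloid lineages were present as well. The mast cell and basophil list summed to 1069 to 3892 CPM in WT and 2132 to 4899 in KO clones, and the monocyte and macrophage list to 543.0 to 1175 and 970.4 to 1815. The megakaryocyte list was at 62.4 to 218.9 CPM in WT and 108.5 to 235.5 in KO clones, and all 3 lists overlapped between genotypes. The part of these markers in the results below was not tested. Cd3e, Cd8a, Col1a1, Pax5 and Hba-a2 were at 0 in all 11 clones. Other genes of the lists that hold Pax5 and Hba-a2 were detected. The B lymphoid list summed to 24.1 to 43.9 CPM in WT and 4.22 to 27.4 in KO clones. For the erythroid list the sums were 14.5 to 72.8 and 12.2 to 26.7. Clone WT 2D stood apart in late neutrophil markers (10 genes, among them Ltf, Ngp and S100a8). Their summed level was 1531 CPM in WT 2D, between 19.1 and 107.9 in the rest of the WT clones, and between 14.96 and 142.0 in the KO clones. No tested gene of any marker list passed the test between genotypes, beside 5.05% of all tested genes. Of the late neutrophil list 6 of 10 genes were tested, and of the T lymphoid and the stroma and hepatocyte lists 0. In bulk RNA, fewer cells of a type and less RNA per cell cannot be told apart.

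Timm17b, a called gene below, and its paralogue Timm17a encode alternative subunits of the TIM23 channel. The 250 bases before their RefSeq starts (GRCm38.p6, 5′ to 3′ on the strand of each gene) are printed so that the regions that serve the paralogues can be compared. Capitals mark CCAAT on either strand, the only motif of the 6 searched that was found there.
Timm17b, chrX:7899086-7899335, + strand: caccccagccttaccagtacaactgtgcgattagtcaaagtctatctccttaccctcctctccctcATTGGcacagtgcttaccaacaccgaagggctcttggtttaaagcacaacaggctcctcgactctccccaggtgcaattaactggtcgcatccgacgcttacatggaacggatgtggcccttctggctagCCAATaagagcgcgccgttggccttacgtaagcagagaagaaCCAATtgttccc
Timm17a, chr1:135313738-135313987, - strand: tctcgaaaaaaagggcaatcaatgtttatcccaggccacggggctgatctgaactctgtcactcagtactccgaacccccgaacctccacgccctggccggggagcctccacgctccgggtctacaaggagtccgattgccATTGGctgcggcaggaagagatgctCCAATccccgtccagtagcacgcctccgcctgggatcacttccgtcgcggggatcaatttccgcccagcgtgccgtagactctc
The Timm17b window holds 3 matches and the Timm17a window 2, and their GC contents are 52.8% and 60.4%. Timm17b starts next to Pqbp1, the gene of a protein that binds polyglutamine tracts and splicing factors, which runs the opposite way from a start 87 bases off in the annotation. Part of the printed stretch therefore lies within Pqbp1.

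Of the 35 import genes, 32 had enough counts to be tested. None was called higher in KO clones and 2 were called lower, Timm17b and Tomm7 (edgeR's quasi-likelihood test, Benjamini-Hochberg adjusted p under 0.05 over 11900 genes). Among all tested genes, 2.29% were called lower and 2.76% higher, to be read against 2 of 32 (6.25%) lower and 0 higher here. At an unadjusted p under 0.05 there were 7 members (21.9%), beside 20.3% of all tested genes. DESeq2 called 1 member higher, Grpel2. The median log2 fold change (KO over WT) of the 32 was -0.03, beside -0.01 over all genes, with 13 above 0 and 19 below. All 32 lay between -0.28 and 0.25 on the log2 scale, and their median absolute value was 0.09 (0.11 over all genes). The 95% interval lay within 25% of the WT level, up or down, for 28 of the 32, the exceptions being Pam16, Timm8a1, Timm23 and Gfer. The summed level of the 32 was 2587 ± 222 CPM in WT (SD, n = 6) and 2498 ± 99.2 CPM in KO (SD, n = 5) clones, and the ranges overlapped.

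**Figure D1:**
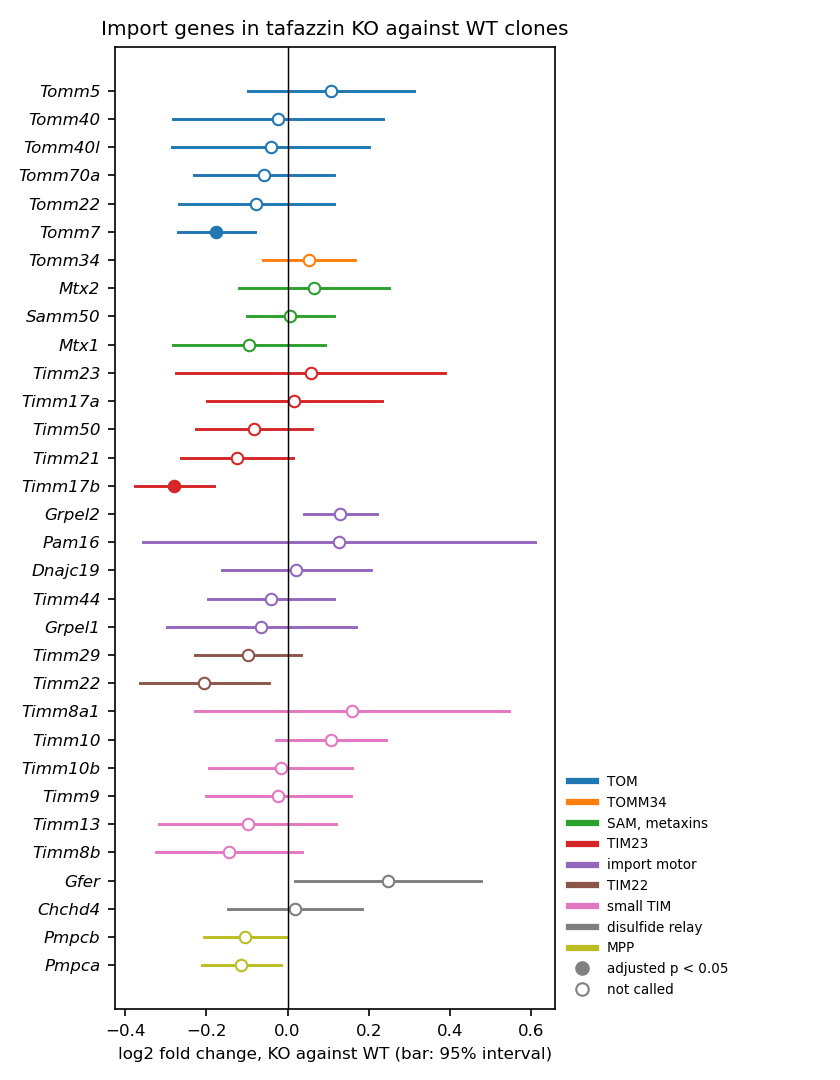
Log2 fold change (x axis, KO over WT) of each tested import gene (y axis), with its 95% interval as a bar and the complex as colour. Filled points mark the 2 genes with an adjusted p under 0.05, Timm17b at -0.28 and Tomm7 at -0.18. The other 30 are open, and Pam16 has the widest bar.

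The TIM23 channel held the larger of the called differences. Timm17b (ENSMUSG00000031158, X chromosome) encodes a subunit that lines the presequence channel. It was at 62.1, 66.3 and 64.2 CPM in clones WT 1A, 1B and 1C and at 60.3, 58.2 and 62.7 in WT 2D, 2E and 2F. The KO clones, from 3H to 4L, had 52.9, 51.9, 54.2, 48.4 and 49.4 CPM. Every KO clone lay below every WT clone, and WT 2D was not apart from the other WT clones for this gene. The log2 fold change was -0.28 ± 0.04 (SE, edgeR adjusted p = 0.00708), which puts KO clones at 82.4% of WT. The call held with any single clone left out (adjusted p up to 0.0238), but not without all clones of title number 1, 3 or 4 (adjusted p = 0.123, 0.0596 and 0.205), nor with counts summed per title number (adjusted p = 0.0831).

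Timm17a, the paralogue, did not pass the test. Its WT clones ran from 44.0 to 63.5 CPM with a median of 46.2, and its KO clones had 51.8, 48.3, 53.0, 47.3 and 51.9 CPM. The highest WT values were those of WT 2D and WT 1A, and the KO clones lay inside the WT range. The log2 fold change was 0.02 ± 0.10 (SE, adjusted p = 0.946). Per kb of exon, Timm17b made up 79.4 ± 2.82% of the pair in WT clones and 75.8 ± 0.793% in KO clones (SD, n = 6 and 5). The ranges overlapped, since WT 2D had 74.6%. In CPM the pair lay closer, with means of 62.3 and 49.9 in WT and 51.4 and 50.5 in KO clones. The share thus depends on the exon lengths used, 2.557 kb for Timm17b and 7.893 kb for Timm17a. The difference between the paralogues' fold changes was not tested.

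The other 3 TIM23 genes did not pass either. Timm50, the receptor that takes presequences from TOM and the most abundant TIM23 gene per kb, was at 106.9, 113.6 and 132.8 CPM (lowest, median and highest) in WT clones and at 111.1, 111.7, 117.9, 100.04 and 113.9 in KO clones. Timm21, which links TIM23 to TOM and to the respiratory chain, stood at -0.12 ± 0.06 on the log2 scale (adjusted p = 0.297). Timm23, the channel core, was at only 1.95 to 2.96 CPM in WT and 2.26 to 3.31 in KO clones. In the annotation, 57.5% of the 50-base stretches of its transcripts also occur in other genes, mostly in Gm10273, and reads that match several places were not counted. Its level is therefore uncertain.

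In TOM, 6 of 8 genes were tested, 1 was lower and none higher. Tomm7 (ENSMUSG00000028998, chromosome 5) encodes a small subunit that modulates assembly of the complex and, in mammalian cells, helps to hold PINK1 at the outer membrane. Its WT clones had 100.6, 102.6, 103.7, 112.2, 104.1 and 112.6 CPM in the order 1A to 2F. Its KO clones had 96.6, 88.2, 96.6, 90.2 and 97.6 CPM in the order 3H to 4L. The genotypes did not overlap, but the highest KO clone (4L) and the lowest WT clone (1A) lay close. The log2 fold change was -0.18 ± 0.04 (SE, adjusted p = 0.0424), or 88.6% of WT. This call was fragile: it was lost without any clone other than WT 1A (adjusted p 0.0546 to 0.116), without each title number, without a filter on low counts, with set means or sums per title number, and with upper-quartile scaling (adjusted p = 0.0518).

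The receptors and the channel of TOM did not pass the test. Tomm40, the beta-barrel channel, had a log2 fold change of -0.02 ± 0.12, and Tomm22, the central receptor, -0.08 ± 0.09. Tomm70a, the receptor for carrier proteins, stood at -0.06 ± 0.08, and Tomm5, a small subunit, at 0.11 ± 0.09 (adjusted p 0.560 to 0.937 for these 4). Tomm40 was at 194.7 CPM in WT 2D and between 121.5 and 155.8 in the rest of the WT group, so the width of its interval includes that clone. Tomm40l, a paralogue of the channel, made up 5.58 ± 1.08% of the pair per kb in WT and 5.42 ± 0.433% in KO clones. Its exons overlap Nr1i3 on the other strand over 64.3% of their length, and counting ignored strand. Reads there can be set apart as ambiguous, so the share and the level of Tomm40l per kb may be too low. Tomm6 and Tomm20l were not tested. Tomm6 had 2 to 13 counts per clone, and Tomm20l, a testis paralogue of the presequence receptor, 0 to 2. Of the stretches of Tomm6, 72.8% are shared with other genes, mostly with Gm21981 (69.1%). That gene model lies at the same place and overlaps 76.0% of the Tomm6 exons on the same strand. Tomm34, a cytosolic co-chaperone that carries a TOM name, had 68.0, 74.4 and 83.8 CPM (lowest, median and highest) in WT clones and 76.8, 78.5, 74.3, 80.4 and 80.8 in KO clones, inside the WT range.

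**Figure D2:**
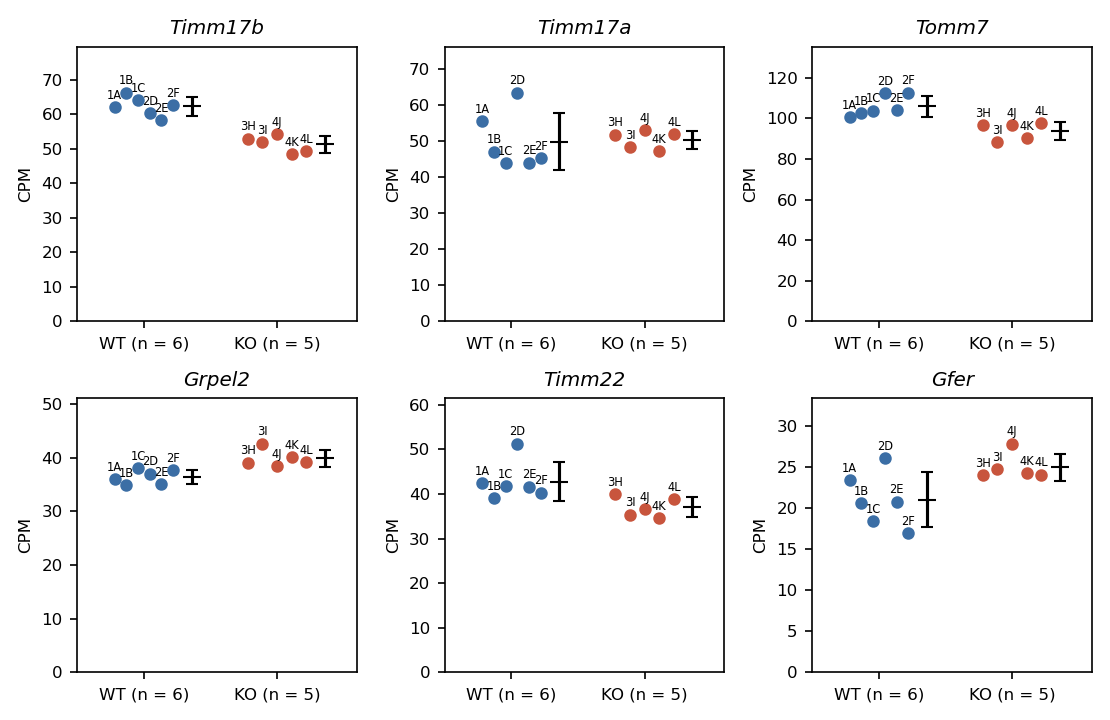
CPM (y axis, from 0) of 6 import genes in each clone, labelled with its title number and letter; bars are mean ± SD of 6 WT and 5 KO clones. Timm17b and Tomm7 do not overlap between genotypes, with KO lower, and Grpel2 does not overlap, with KO higher. For Timm17a and Timm22 WT 2D is the highest clone.

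The SAM complex and the metaxins, which insert beta-barrels such as Tomm40, showed no call in 3 tested genes. Samm50, the SAM channel, had 258.6, 268.5 and 306.2 CPM (lowest, median and highest) in WT clones and 281.6, 263.3, 264.7, 271.6 and 291.0 in KO clones. Its log2 fold change, 0.01 ± 0.05, had a 95% interval from a change of -6.68% to one of 8.20%. Mtx1 and Mtx2, the SAM partners on the cytosolic face, stood at -0.10 ± 0.08 and 0.07 ± 0.08.

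None of the 5 motor genes was called. Grpel2, a nucleotide exchange factor of the matrix heat-shock protein Hspa9, separated the genotypes nevertheless. Its WT clones had 34.9, 36.5 and 38.0 CPM (lowest, median and highest), and its KO clones 39.1, 42.6, 38.5, 40.1 and 39.2. All KO clones lay above all WT clones, by 0.13 ± 0.04 on the log2 scale (SE, edgeR adjusted p = 0.101), or 109.4% of WT. It passed in DESeq2 (adjusted p = 0.0420) and with the title number as a random block (adjusted p = 0.0200; the block's estimated correlation was negative, -0.21), but not with set means or counts summed per title number (adjusted p = 0.147 and 0.177). Of all tested genes, 2.97% were separated in this direction and 3.02% in the other, beside 1 and 2 of the 32 members.

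Grpel1, the abundant exchange factor, had 84.8, 93.6 and 123.6 CPM in WT clones (lowest, median and highest) and 102.6, 88.7, 97.2, 84.0 and 100.5 in KO clones. Grpel2 made up 16.3 ± 2.04% of the pair per kb in WT and 18.1 ± 1.72% in KO clones (SD, n = 6 and 5), with overlap. Timm44, which ties the motor to the channel, stood at -0.04 ± 0.07, and Dnajc19, a J-protein of the motor, at 0.02 ± 0.08. Dnajc19 is a gene of a cardiomyopathy resembling Barth syndrome, and its product binds prohibitins. It was at 11.0 ± 1.00 CPM in WT and 11.2 ± 0.772 in KO clones. Pam16, the regulator of that J-protein, was at 0.660 to 1.36 CPM over all clones. Its interval ran from a change of -21.9% to one of 52.6%, and 35.7% of its stretches are shared with other genes.

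In TIM22, which inserts carrier proteins, neither gene was called and both had a negative value. Timm22, the channel, had 39.1, 41.7 and 51.2 CPM (lowest, median and highest) in WT clones and 39.9, 35.3, 36.6, 34.6 and 38.9 in KO clones. Only KO 3H exceeded the lowest WT clone. The log2 fold change was -0.21 ± 0.07 (SE, adjusted p = 0.134) and -0.15 without WT 2D, the highest clone (adjusted p = 0.112). It passed with the title number as a random block (adjusted p = 0.0293), but not with set means or summed counts (adjusted p = 0.198 and 0.144). Timm29, which anchors the complex, had 103.9, 109.6 and 126.2 CPM in WT clones and 111.5, 102.5, 109.3, 100.5 and 105.7 in KO clones, at -0.10 ± 0.06 (adjusted p = 0.393).

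The small TIM chaperones form hexamers of Timm9 with Timm10 and of Timm8a1 or Timm8b with Timm13. None of the 6 tested was called, and their log2 fold changes ran from -0.14 to 0.16. The partners of the first hexamer stood at -0.02 ± 0.08 (Timm9) and 0.11 ± 0.06 (Timm10). Timm8b, the most abundant per kb, had 34.02, 40.1 and 44.4 CPM in WT clones (lowest, median and highest) and 34.1, 33.2, 38.0, 34.3 and 40.1 in KO clones, and the ranges overlapped (-0.14 ± 0.08, adjusted p = 0.359). Timm8a1, the X-linked gene of a human deafness-dystonia syndrome, stood at 0.16 ± 0.18 with an interval from a change of -14.6% to one of 46.0%. It shares 41.0% of its stretches with Gm9797. It made up 5.41 ± 0.887% of the Timm8a1 and Timm8b pair per kb in WT and 6.67 ± 0.435% in KO clones, with overlap. Timm8a2 had 0 to 2 counts per clone and was not tested.

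In the disulfide relay, Gfer, the oxidase that recharges Chchd4, had the largest positive value of the 32. Its WT clones had 17.0, 20.8 and 26.1 CPM (lowest, median and highest), and its KO clones 24.0, 24.8, 27.9, 24.3 and 24.1. Only WT 2D among the WT clones lay within the KO range. The log2 fold change was 0.25 ± 0.10 (SE, adjusted p = 0.206) and 0.32 without WT 2D (adjusted p = 0.0621). With the title number as a random block it passed (adjusted p = 0.0316), but not with set means or summed counts (adjusted p = 0.312 and 0.0986). Chchd4, the import receptor of the relay, had 93.8, 100.3 and 126.7 CPM in WT clones and 107.2, 97.9, 102.7, 103.0 and 113.3 in KO clones, at 0.02 ± 0.07 (adjusted p = 0.922).

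The subunits of the matrix processing peptidase, Pmpca and Pmpcb, stood at similar values with neither called. Pmpca, the subunit that recognises the substrate, had 156.6, 161.4 and 185.7 CPM in WT clones (lowest, median and highest) and 157.4, 152.4, 149.3, 153.8 and 150.1 in KO clones. Pmpcb, the catalytic subunit, had 102.1, 107.7 and 122.5 in WT clones and 103.1, 99.8, 101.1, 101.5 and 103.6 in KO clones. Both overlapped only at the edge of the WT range. The log2 fold changes were -0.11 ± 0.04 and -0.10 ± 0.05 (adjusted p = 0.176 and 0.240), and -0.08 and -0.07 without WT 2D.

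Levels per kb of exon differed far more between the genes than between the genotypes. Exon length was that of all exons of a gene merged, from the GRCm38 annotation rather than the one counted. The levels and the pair shares above depend on that choice. Tomm7 was the highest, with 94.2 CPM per kb in WT and 83.4 in KO clones. Timm8b (76.7 in WT), Tomm22 (71.1) and Timm13 (52.9) followed. Pam16 (0.391), Timm23 (1.47), Tomm40l (1.83) and Dnajc19 (2.74) were the lowest in WT clones. Overlaps with genes on the other strand make some of these levels uncertain, because counting ignored strand. Among the lowest, Dnajc19 overlaps Fxr1 over 4.42% of its exons and Pam16 overlaps Glis2 over 18.7%. Timm8b, near the top, overlaps Nkapd1 over 15.6%. Pmpca overlaps Inpp5e over 20.4%, and Grpel1 overlaps Tada2b over 11.65%. The counter set ambiguous reads apart, so an overlap can lower a level. The part of the overlaps in these levels was not tested.

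**Figure D3:**
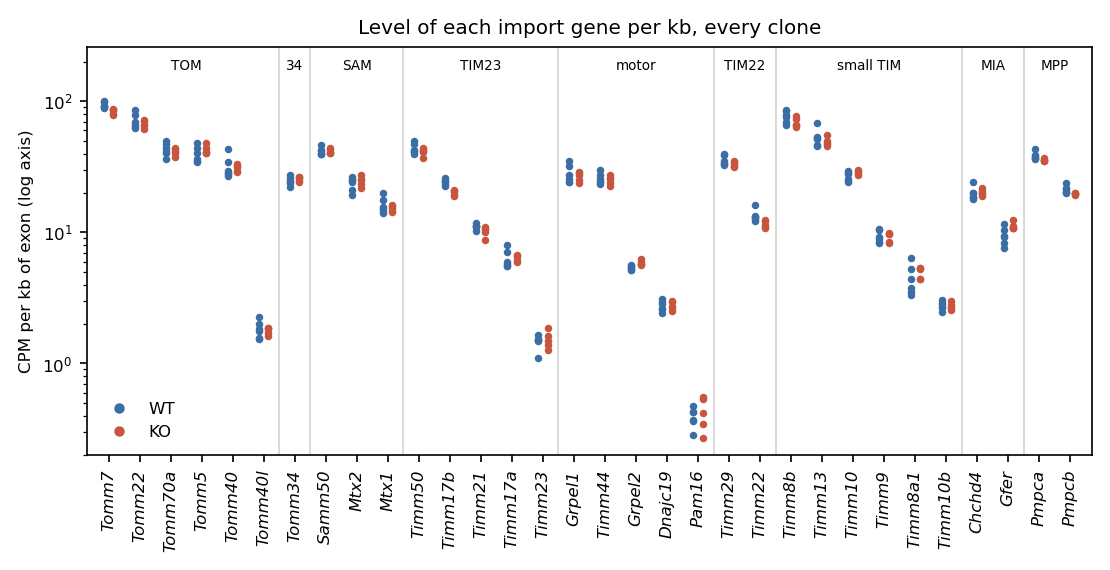
CPM per kb of exon (y axis, log scale) of the 32 tested import genes (x axis), by complex; each point is a clone, WT blue and KO red. 34 is Tomm34, MIA the disulfide relay and MPP the matrix processing peptidase. Points of the genotypes lie close together for each gene, while genes run from 0.391 (Pam16) to 94.2 (Tomm7) in the WT mean.

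Clones of a genotype differed in the import genes together. WT 2D was the highest of the 11 clones for 19 of the 32 genes, beside 20.8% of all tested genes. Its median deviation from the mean of both genotypes was 0.21 on the log2 scale, and WT 1A had 0.11. The lowest were KO 4K at -0.12 and WT 2E at -0.08, each the lowest clone for 8 genes. Of all tested genes, 12.0% were lowest in KO 4K and 10.4% in WT 2E. The late neutrophil markers were at 1531 CPM in WT 2D, at 107.9 in WT 1A, at 19.1 in WT 2E and at 14.96 in KO 4K. KO 4L, with 142.0 CPM of these markers, had a median deviation of 0.06, and the other 6 clones lay between 28.7 and 93.2 CPM. The GMP and primary granule list was at 21645 CPM in WT 2D and 18957 in WT 1A, and at 11587 in WT 2E and 10492 in KO 4K. The mast cell and basophil list ran the other way in these clones, at 1069, 1227, 3892 and 4899 CPM in the same order. The part of these markers in the deviations was not tested. Without WT 2D, the median log2 fold change of the 32 genes was 0.01 in place of -0.03, with 15 rather than 19 below 0, and Timm17b alone was called. The within-genotype SD of log2 CPM had a median of 0.13 over the 32 genes (0.15 over all tested genes). Grpel2, Timm17b and Tomm7 had the lowest, at 0.05, 0.07 and 0.07, and Pam16 the highest, at 0.32.

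**Figure D4:**
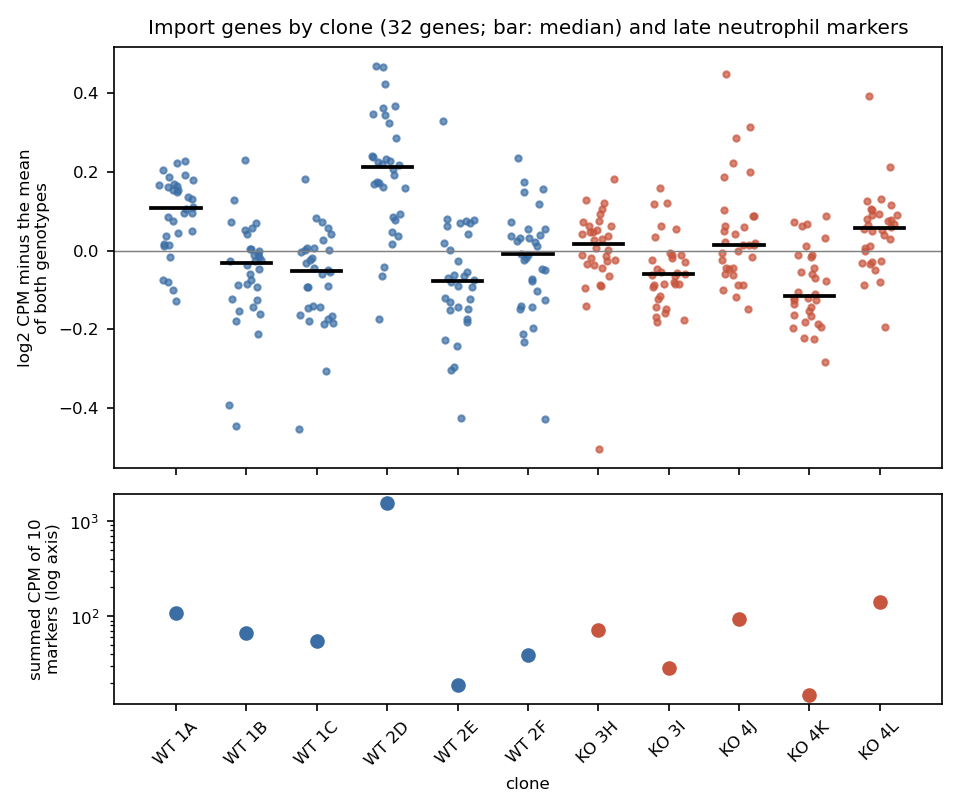
Upper panel: log2 CPM of each of 32 import genes minus the mean of both genotypes (y axis) in each clone (x axis), with the median as a bar. Lower panel: summed CPM of 10 late neutrophil markers (log axis). WT 2D has the highest median, 0.21, and the highest marker sum, 1531 CPM.

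Between the numbered sets of a genotype, no import gene was called (edgeR, number 2 against 1 among WT and 4 against 3 among KO clones), and none of 11900 genes was (0%). At an unadjusted p under 0.05 the members numbered 1 and 0, and the share of all tested genes at that threshold was not counted. DESeq2 and limma-voom called 0 members in either contrast. Sets of 2 or 3 clones limit what these contrasts can show.

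Timm17b lies on the X chromosome, as does Taz, and its neighbours were read for context. Pqbp1, the divergent neighbour, was at 79.6 ± 2.28 CPM in WT and 70.8 ± 1.204 in KO clones (SD, n = 6 and 5), without overlap. Its log2 fold change was -0.17 ± 0.03 (SE, edgeR adjusted p = 0.0113). Slc35a2 (-0.03 ± 0.06), Hdac6 (-0.02 ± 0.10) and Gata1 (-0.66 ± 0.33, adjusted p = 0.299), the next genes outward, did not pass. Of 372 tested genes of X, 16 were called lower (4.30%, beside 2.29% of all tested genes) and 4 higher (beside 2.76%). Their median was -0.03. The 16 include Taz itself, Timm17b and Pqbp1. None of the 4 neighbours of Tomm7 (Pus7, Rint1, Fam126a and Klhl7) was called.

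Promoter windows of 300 bases (250 before to 50 after the RefSeq start, GRCm38.p6) were found for 31 of the 35 genes, 33 windows in all. The ETS motif CCGGAAG, on either strand, was in 15 of 33 (45.5%), beside 8.86% of all 32851 windows and 18.5% of the windows of tested genes. The median GC content was 58.7% in the member windows, 52.7% in all and 60.7% in those of tested genes. Of 24 ETS matches, 21 began within 100 bases before to 50 after the start. Positions were not counted in the windows of other genes, so whether this is particular to the members was not tested. Short stretches before the starts of both peptidase subunits and of a small TIM show such a match in capitals (CTTCCGG is the motif read on the other strand).
Pmpca, chr2:26389275-26389321, + strand: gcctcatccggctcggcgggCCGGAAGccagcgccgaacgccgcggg
Pmpcb, chr5:21737124-21737159, + strand: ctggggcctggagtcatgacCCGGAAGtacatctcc
Timm10, chr2:84826985-84827020, + strand: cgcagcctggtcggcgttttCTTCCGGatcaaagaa
Both subunits of the peptidase thus carry the letters close to the start, 53 and 16 bases before it. The NRF1 motif (GCGCA, any base, GCGC) was in 3 windows (9.09%, beside 10.4% for tested genes), of Chchd4, Pam16 and Timm8b, and the YY1 motif AAGATGGCG in 2 (6.06%, beside 3.25%), of Mtx1 and Timm50. CACGTG, the E-box that MYC binds, was in 4 (12.1%, beside 10.0%) and CCAAT in 10 (30.3%, beside 38.0%). TGATGNAA, a form of the ATF4 element, was in 0 (beside 2.27%). All motifs were searched on both strands, and no ETS match overlapped a YY1 match in any member window. A match is a run of letters and no evidence of binding.

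Around the translocases, 49 further genes of import were tested. Their lists were chosen with earlier results of these data known, so the shares called within them are no independent test. Of the 49, 3 were higher and 3 lower in KO clones (12.2% in all). Among all tested genes 5.05% were called, 2.76% higher and 2.29% lower. The median log2 fold change of the 49 was -0.02. Hspa9, the mitochondrial heat-shock protein that drives the motor, had 1018, 945.1, 887.2, 1194, 923.6 and 1000 CPM in WT clones 1A to 2F and 1362, 1334, 1280, 1110 and 1258 in KO clones 3H to 4L. WT 2D was the only WT clone within the KO range. The log2 fold change was 0.35 ± 0.08 (SE, adjusted p = 0.0311) and 0.41 without WT 2D (adjusted p = 0.00503). The call was lost in 8 of the 11 fits that each left out a clone (adjusted p 0.0566 to 0.0817) and with counts summed per title number (adjusted p = 0.0845). Grpel1, Grpel2, Dnajc19, Timm44 and Pam16, its partners in the motor, were not called.

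Hspa8, the cytosolic chaperone that hands precursors to Tomm70a, was at 549.2 ± 30.4 CPM in WT and 618.1 ± 16.4 in KO clones, without overlap (0.17 ± 0.04, adjusted p = 0.0395). Vdac3, a porin inserted by SAM, was at 52.9 ± 2.83 and 62.0 ± 4.41 CPM (0.23 ± 0.05, adjusted p = 0.0389), with overlap. Among 19 clients and partners of the disulfide relay, 3 were lower (15.8%, beside 2.29% of all tested genes) and none higher (beside 2.76%). This list too was chosen with earlier results known, so its share cannot show an excess. Aifm1, which tethers Chchd4 at the inner membrane, fell by 0.22 ± 0.05 on the log2 scale (adjusted p = 0.0228), Cox6b1, a subunit of cytochrome c oxidase, by 0.16 ± 0.04 (adjusted p = 0.0356), and Uqcrh, a subunit of the cytochrome bc1 complex, by 0.12 ± 0.03 (adjusted p = 0.0446). These calls depended on single clones: leaving out KO 3I left 0 of the 6. In the 11 fits that each left out a clone, Aifm1 was called in 9. Hspa9 and Cox6b1 were called in 3 each, Vdac3 in 2, and Hspa8 and Uqcrh in 1 each. No maturation peptidase and no insertase was called. Pitrm1, the presequence protease, was at 303.3 ± 38.4 and 299.8 ± 35.1 CPM, and Oxa1l, the insertase, at 108.9 ± 2.29 and 111.8 ± 4.64.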

How the data were processed

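RNA of 11 clones (6 WT, 5 KO; genotype from the labels) was polyA-selected and made into strand-specific libraries, per the labels' protocols. For each clone the authors deposited unnormalised counts of reads in Ensembl genes, marked as counted without strand. Per the submitters' processing notes, STAR, HTSeq and edgeR were used with build mm9, with no version named. No source used here gives the annotation release. The counter's own totals were left out. Symbols came from a GRCm38 annotation matched by ID (32860 of 37583 IDs, 99.6% of the counts), used for names, exon length and gene order only. Any 2 clones of a genotype differed by more than sampling noise (chi-square per gene 15.0 or more).

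All 11900 genes kept by filterByExpr were fitted with edgeR 4.0.16 (robust quasi-likelihood, TMM, Benjamini-Hochberg, R 4.3.3). CPM uses TMM-scaled libraries and log2 CPM a prior count of 2. Standard errors were worked back from the F statistic (size of the log2 fold change divided by its root). Scripts were tested on simulated data. Alternatives were RLE and upper-quartile scaling, no filter and a stricter one (at least 5 CPM in 5 clones), DESeq2 1.42.0, limma-voom 3.58.1, a fit that is not robust, title numbers as a block, as set means or as summed counts, and clones or numbers left out. Members, lists and motifs were chosen with earlier results of these data known. All members could be named; related genes were named by up to 4 called per list, or the most abundant where none was called. The neighbours of Timm17b and Tomm7 and the printed promoter stretches were chosen after the values of these genes were seen.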

Additional observations from a re-analysis of the deposited data

Results flagged for a closer look

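Each import gene was examined in the 6 WT and the 5 KO clones for a highest or lowest clone far from the rest (gap to the nearest clone over the range of the group, Dixon's 95% limit). Of 64 such tests 6 passed, and chance passes about 1 in 20 groups. Clone WT 2D was the outlying clone in 4 of the 6. Timm22 was at 51.2 CPM there (next WT clone 42.4), Chchd4 at 126.7 (next 103.2), Pmpca at 185.7 (next 166.9) and Timm13 at 93.5 (next 73.7). Timm23 was low in WT 2E, at 1.95 CPM (next 2.65). Gfer was high in KO 4J, at 27.9 CPM (next 24.8).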

How the results depend on the processing

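Over 25 alternatives, 798 values of the 32 import genes were recomputed: none reversed a call, 22 lost one (of Timm17b or Tomm7), 4 gained one (Grpel2 under 2, Gfer and Timm22 under 1 each), and 46 changed sign without a call in either setting. Taz was called in every alternative, and the contrasts between title numbers called 0 members wherever they could be fitted. The import genes called lower numbered 1 with upper-quartile scaling, without a filter, with set means and without number 2; 0 without number 1, 3 or 4 and with summed counts; and 1 to 2 with a clone left out (2 only without WT 1A). Those called higher numbered 1 in DESeq2 and 2 with the random block, whose estimated correlation within a number was -0.21. Related genes called higher numbered 5 in DESeq2 and with the random block, 1 without a filter, with set means and without number 2, and 0 with summed counts and without number 1, 3 or 4 (0 to 4 with a clone left out). Those called lower numbered 6 with the random block, 1 without a filter, and 0 with set means, summed counts and without any number (0 to 3 with a clone left out). All tested genes called, 601, became 1259 in DESeq2, 1983 with the random block, 329 without a filter, 307 with set means, 197 with summed counts, 45, 296, 92 and 32 without number 1, 2, 3 and 4, and 240 to 739 with a clone left out. Leaving out a number or summing counts also leaves fewer samples; otherwise the cause was not tested. No paired analysis was possible because the groups share no replicate numbers. Low counts kept Tomm6, Tomm20l and Timm8a2 out of the test. The intervals of Pam16, Timm8a1, Timm23 and Gfer were wide, and the part of depth in this was not tested.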
